A study of Danio rerio with 14 samples.

Results

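The finTRIM genes are a large family of tripartite motif (TRIM) genes found in fish, and in the tables of whole zebrafish larvae they are the genes whose symbol begins with ftr and a number. The rule found 73 of 36351 genes, of which 68 had at least 1 read in some library. Changes are described for members whose normalized counts averaged 10 or more in the libraries fitted for a comparison. All animals were wild-type AB zebrafish, exposed from 3 to 96 hours post fertilization (hpf), and RNA of the whole larva was taken at 96 hpf. The control group received the solvent dimethyl sulfoxide (DMSO) at 0.01% by volume, and the labels give a DMSO share for this group only. The boscalid group received 0.03 µg/L of boscalid, a fungicide that blocks succinate dehydrogenase, and the M510F01 group received 0.03 µg/L of M510F01, a metabolite of boscalid. Each group held 4 libraries in the tables, and the fifth boscalid and the fifth M510F01 sample were not analysed here.

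TRIM proteins carry a RING domain with ubiquitin ligase activity, B-box domains and a coiled coil, and most finTRIM proteins add a B30.2 domain at their end, a fold that binds other proteins. The family was first described from genes induced by virus in leukocytes of rainbow trout, and in zebrafish most members lie in tandem arrays of close copies. ftr83, which has counterparts in many fish, is known in zebrafish to raise type I interferon and to protect cells against virus, while the roles of most other members are not known.

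Reads assigned to genes numbered 12893093 to 17060350 per library. Of the 68 finTRIM genes with a read, 52 had one in all 12 libraries and 16 in only some. The 5 genes without a read were ftr08, ftr09, ftr27, ftr46 and ftr77, and a count of 0 allows up to 3 reads per library, for counting error only. Of 67 members with a gene number, 66 matched the RefSeq annotation of the GRCz12tu assembly. RefSeq gave another symbol to 8 of these, among them ftr97 (LOC100150342), ftr24 (ftr20), ftr36 (ftr65), ftr29 (ftr31), ftr32 (ftr29) and ftr99 (ftr84). The gene called ftr29 here is thus the ftr31 of RefSeq, and the ftr29 of RefSeq is called ftr32 here. RefSeq lists ftr39p, ftr52p and ftr53 as pseudogenes. Close copies can share reads, 8 members overlap another member in RefSeq, and no source used here gives the settings of the read counting, so the split of reads between neighbouring copies is uncertain. The labels do not say whether replicates came from separate clutches or tanks, so each p below measures the spread between these samples.

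A few members held most of the finTRIM reads. Levels are given as normalized counts with all 12 libraries on one scale, and they are not per length, so the order of genes is an order of reads and not of transcript number. The highest mean over 12 libraries was 516.7 normalized counts for ftr82, followed by 365.7 for ftr67, 273.7 for ftr97 and 233.6 for ftr83. These 4 genes held 50.5% of the finTRIM counts and the first 10 held 69.5%. The pseudogene ftr52p came next at 153.6 normalized counts, ahead of ftr24 at 101.2, ftr85 at 73.9, ftr36 at 71.6, ftr86 at 67.9 and ftr63 at 55.8. In all, 36 members had a mean of at least 10, 27 a mean from 1 to under 10, and 5 a mean above 0 and under 1.

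**Figure D1:**
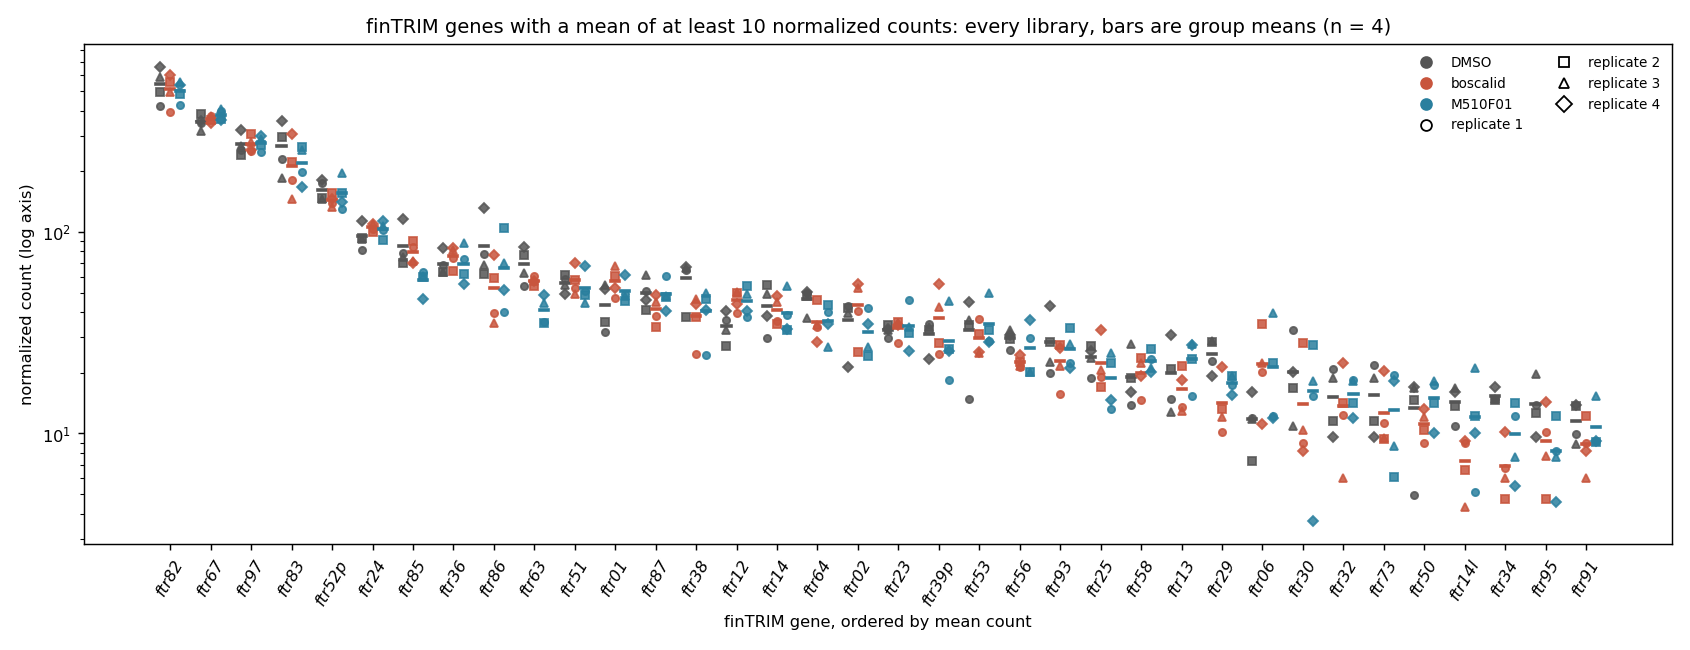
Normalized count of finTRIM genes in each of the 12 libraries on a log axis, with bars for group means, for the 36 members with a mean of at least 10. The points of the 3 groups overlap for most members, and ftr82 with a mean of 516.7 is the highest.

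The neighbours ftr82 and ftr83 both belong to the part of the family that is conserved between fish. In DMSO, ftr82 had 422.0, 493.7, 587.2 and 659.6 normalized counts in replicates 1 to 4. It had 391.6, 555.9, 494.3 and 600.9 with boscalid, and 424.2, 482.5, 554.5 and 534.7 with M510F01. All 3 groups overlap, and replicate 1 was the lowest of each. The interferon-raising gene ftr83 had 229.4, 296.6, 185.8 and 356.5 normalized counts in DMSO, 180.0, 222.3, 145.2 and 305.5 with boscalid, and 198.3, 263.6, 253.7 and 166.6 with M510F01. Its highest values stood in DMSO replicate 4 and boscalid replicate 4, and the groups overlap. For boscalid against DMSO the log2 fold change of ftr83 was -0.33 (95% confidence interval -0.88 to 0.22) and that of ftr82 was -0.08 (-0.45 to 0.29), and neither passed limma's test. The same held for M510F01 against DMSO, at -0.26 (-0.71 to 0.20) for ftr83 and -0.10 (-0.42 to 0.22) for ftr82. For boscalid the ftr83 value was -0.52 with boscalid replicate 4 left out and -0.17 with boscalid replicate 3 left out. Each boscalid library was below the DMSO library of the same number for ftr83. Its limma adjusted p for boscalid was 0.689, and 0.125 with the replicate number as a block in the fit. With that block 19.996% of all genes had an unadjusted limma p under 0.05 for boscalid, where 7.68% did in the main fit. For M510F01 the ftr83 value was -0.41 with DMSO replicate 3 left out and -0.10 with DMSO replicate 4 left out. Its limma adjusted p with the block was 0.864 for M510F01. ftr99, the gene that RefSeq names ftr84, was low, with 7.1 to 12.2 normalized counts in every library.

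ftr67, ftr97, ftr24 and ftr52p varied less between replicates than ftr82 and ftr83 did, with a coefficient of variation within groups of 6.37%, 10.1%, 9.53% and 13.6% against 16.8% and 27.7%. ftr67 had 347.5, 383.6, 315.3 and 354.3 normalized counts in DMSO, 377.0, 360.8, 376.8 and 345.3 with boscalid, and 397.6, 362.9, 408.4 and 358.9 with M510F01. Its groups overlap, and its interval against DMSO was -0.15 to 0.28 on the log2 scale for boscalid and -0.09 to 0.34 for M510F01. ftr97 had means of 272 ± 34.9, 273 ± 24.9 and 277 ± 21.7 normalized counts in DMSO, boscalid and M510F01, and ftr24 of 94.9 ± 13.2, 106 ± 4.74 and 103 ± 9.04 (SD, n = 4). The pseudogene ftr52p had means of 162 ± 18.4, 143 ± 10.1 and 155 ± 29.5 (SD, n = 4), so that these group means differed by less than or about as much as replicates did.

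Members differed in how far replicates spread. Within groups the coefficient of variation had a median of 24.3% over the 36 members, from 6.37% for ftr67 to 56.9% for ftr30, where counting alone gives a median of 16.8%. The ratio of variance to mean within groups lay between 0.5 and 2 for 21 members, close to the value of counting noise, and exceeded 5 for ftr83 (17.9), ftr82 (14.5), ftr86 (10.6) and ftr30 (5.43). DMSO replicate 4 held the highest of all 12 values for 12 of the 36 members, and M510F01 replicate 3 for 8. In the median member DMSO replicate 4 stood 0.24 above that member's mean on the log2 scale, while boscalid replicate 1 was at -0.17 and M510F01 replicate 4 at -0.15.

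Summed over the family, finTRIM genes took 184.6, 189.5, 189.3 and 227.0 of every 1000000 reads (RPM) in DMSO, a mean of 197.6 ± 19.7 (SD, n = 4). The sums were 166.0, 191.7, 175.7 and 204.6 with boscalid (184.5 ± 17.1, SD, n = 4) and 174.2, 190.5, 211.2 and 179.8 with M510F01 (189.0 ± 16.3, SD, n = 4). The 3 groups overlap, and the highest value is that of DMSO replicate 4. Between 60 and 66 members had a read in any 1 library. In RNA of whole larvae, fewer cells that express a gene and less RNA per cell cannot be told apart.

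**Figure D2:**
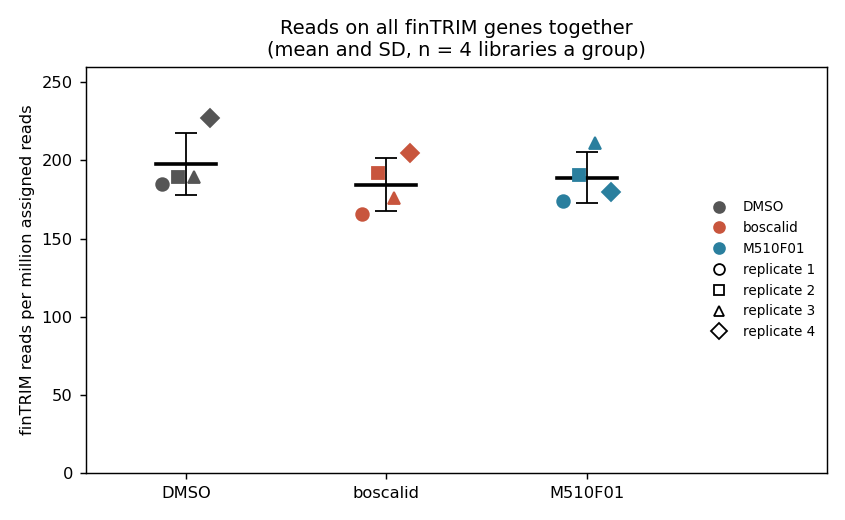
Reads on finTRIM genes per 1000000 reads (RPM) in each library, by group, with the mean and SD of 4 libraries. The groups overlap, with means of 197.6 in DMSO, 184.5 with boscalid and 189.0 with M510F01, and DMSO replicate 4 is the highest at 227.0.

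Exposure to boscalid was set against DMSO to ask whether the parent compound altered these genes. Of 37 members tested, 0 passed an adjusted p of 0.05 in limma, where 0.0173% of all genes tested did, and edgeR and DESeq2 also called 0. Their log2 fold changes were negative for 24 and positive for 13 members, with a median of -0.13 against -0.00 over all genes, and ranged from -1.09 to 0.80. An unadjusted p under 0.05 was reached by 7 members in limma, where 7.68% of all genes reached it, by 7 in edgeR and by 6 in DESeq2. The limma count was 3 without DMSO replicate 1, where 5.44% of all genes reached it, and 4 without DMSO replicate 4, where 4.63% did. It was also 4 without boscalid replicate 1, where 16.5% of all genes did, and without boscalid replicate 3, where 3.93% did. Without boscalid replicate 4 it was 8, where 6.05% of all genes did. With the replicate number as a block in the fit it was 7, where 19.996% of all genes reached it. With a term that sets replicates 1 and 2 against 3 and 4 it was 8, where 14.68% did. The contrast with all genes in the main fit thus depended on the model. Of the 7 in the main fit 5 were lower, where 3.94% of all genes were, and 2 were higher, where 3.74% of all genes were. The 95% intervals lay within 2-fold in both directions for 26 members and within 1.5-fold for 10.

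ftr34 had the smallest p of the members tested. It had 14.9, 14.7, 14.8 and 17.1 normalized counts in DMSO against 6.8, 4.7, 6.0 and 10.2 with boscalid. The groups do not overlap, although each value rests on few reads, 16 for the highest DMSO library. The log2 fold change was -1.09 (SE 0.28, 95% confidence interval -1.71 to -0.46), with a limma adjusted p of 0.456. In the authors' deposited table ftr34 likewise had the smallest adjusted p of any member, 0.466.

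ftr14l had 10.9, 13.6, 16.8 and 16.0 normalized counts in DMSO and 9.0, 6.6, 4.3 and 9.2 with boscalid, again without overlap. Its log2 fold change was -0.92 (SE 0.30, limma adjusted p = 0.593). ftr56 was the other member without overlap, at 25.8, 29.3, 32.6 and 31.0 in DMSO against 21.4, 22.6, 21.6 and 24.4 with boscalid. These 3 were all lower with boscalid, where 2.07% of all genes were, and 0 members were higher without overlap, where 2.2% of all genes were.

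The other members with an unadjusted p under 0.05 overlapped between groups. ftr29 had 22.8, 28.3, 28.7 and 19.2 normalized counts in DMSO and 10.1, 13.2, 12.1 and 21.4 with boscalid, so that only boscalid replicate 4 reached the DMSO range. Its log2 fold change was -0.79 (SE 0.27, limma adjusted p = 0.612). For ftr38 the values were 64.5, 37.7, 66.2 and 67.2 in DMSO and 24.8, 37.7, 46.7 and 43.8 with boscalid, a log2 fold change of -0.61 (SE 0.25). DMSO replicate 2 stood within the boscalid range. ftr86 had 77.4, 61.8, 68.2 and 131.3 in DMSO and 39.4, 59.4, 35.4 and 76.4 with boscalid, a log2 fold change of -0.68 (SE 0.29, limma adjusted p = 0.647). Without DMSO replicate 4, which held the 131.3, it was -0.45.

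Of the members with positive values, ftr06 had 11.9, 7.3, 11.9 and 16.0 normalized counts in DMSO and 20.3, 34.9, 22.5 and 11.2 with boscalid. Its log2 fold change was 0.80 (SE 0.35), and 0.56 without boscalid replicate 2, which held the 34.9. Boscalid replicate 4 lay in the DMSO range. ftr12 had 36.7, 27.3, 32.6 and 40.6 in DMSO and 39.4, 49.9, 50.1 and 43.8 with boscalid, a log2 fold change of 0.42 (SE 0.18). Its boscalid replicate 1 lay in the DMSO range. The positive members with the next smallest p were ftr01 at 0.41, ftr24 at 0.16, ftr36 at 0.13 and ftr02 at 0.24, whose groups overlap. ftr02 was at 0.0088 without DMSO replicate 4, ftr24 at 0.09 without DMSO replicate 1 and ftr36 at 0.08 without boscalid replicate 4.

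**Figure D3:**
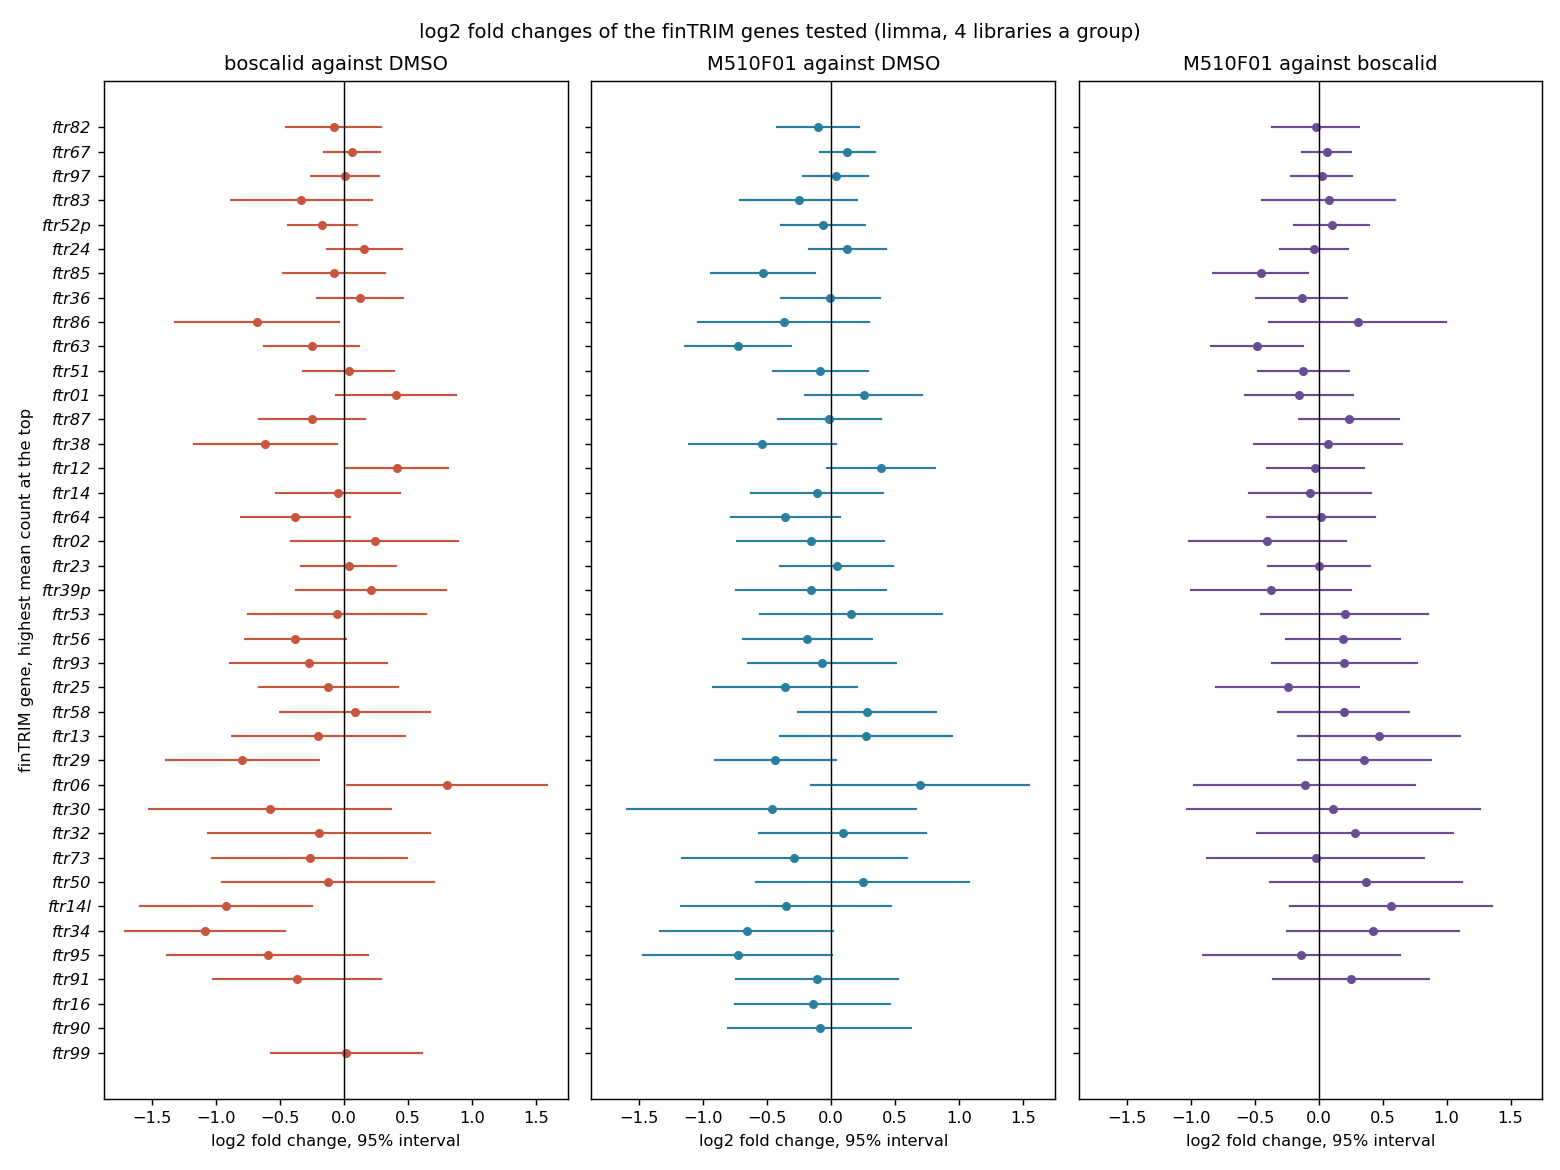
Log2 fold change (points) with its 95% confidence interval (lines) for each finTRIM gene tested, in 3 panels for boscalid against DMSO, M510F01 against DMSO and M510F01 against boscalid. The panels share libraries, none of the points passed the adjusted threshold in limma, and the values run from -1.09 for ftr34 with boscalid to 0.80 for ftr06 with boscalid.

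The metabolite was compared with the same 4 DMSO libraries, so the fold changes of the compounds share their controls and are given side by side. Of 38 members tested, 0 passed an adjusted p of 0.05 in limma, where 0.0% of all genes tested did, and edgeR and DESeq2 also called 0. The log2 fold changes were negative for 26 and positive for 12 members, with a median of -0.11 against 0.00 over all genes and a range from -0.73 to 0.69. Unadjusted p-values under 0.05 numbered 2 in limma, where 3.61% of all genes had one, 3 in edgeR and 2 in DESeq2. Both in limma were lower, where 2.1% of all genes were. The 95% intervals lay within 2-fold for 28 members and within 1.5-fold for 9.

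ftr63 had 53.6, 76.5, 62.3 and 84.3 normalized counts in DMSO against 35.8, 35.5, 44.2 and 48.5 with M510F01. No M510F01 library reached the lowest DMSO library. The log2 fold change was -0.73 (SE 0.19, 95% confidence interval -1.14 to -0.32), with a limma adjusted p of 0.9998, and ran from -0.84 to -0.63 when each library was left out in turn. In boscalid its values were 60.8, 53.7, 57.0 and 57.0, a log2 fold change of -0.25 against DMSO (95% confidence interval -0.62 to 0.12) that was -0.15 without DMSO replicate 4.

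ftr85 had 78.4, 70.2, 75.1 and 116.3 normalized counts in DMSO and 63.4, 59.8, 60.5 and 46.7 with M510F01, without overlap. Its log2 fold change was -0.53 (SE 0.18), and DMSO replicate 4 was far above the other DMSO libraries. Without that library it was -0.37. With boscalid it had 84.4, 90.4, 71.7 and 70.3, and its log2 fold change of -0.08 against DMSO had an interval of -0.48 to 0.32. For ftr34, M510F01 gave 12.3, 14.2, 7.7 and 5.5 normalized counts, all below the 4 DMSO values, at a log2 fold change of -0.66 (SE 0.31), which was -0.44 without M510F01 replicate 4. These 3 were the members lower without overlap, where 1.06% of all genes were, and 0 were higher, where 1.12% of all genes were.

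The remaining members with small p overlapped the controls. ftr95 had a log2 fold change of -0.73 (SE 0.34), ftr38 of -0.54 and ftr29 of -0.44, where boscalid gave -0.60, -0.61 and -0.79. For ftr38 it was -0.32 without M510F01 replicate 1. On the positive side ftr12 had 37.8, 53.7, 49.0 and 40.3 normalized counts with M510F01, a log2 fold change of 0.39. ftr06 was at 12.3, 22.3, 39.4 and 11.9, a log2 fold change of 0.69 with replicates 1 and 4 in the DMSO range, and 0.36 without replicate 3. The positive members with the next smallest p were ftr67 at 0.13, ftr01 at 0.25, ftr58 at 0.28 and ftr24 at 0.13. Without DMSO replicate 1 the values of ftr01, ftr58 and ftr24 were 0.12, 0.15 and 0.055, and ftr67 was at 0.078 without DMSO replicate 3. ftr86 had 39.9, 104.4, 70.1 and 51.3 normalized counts with M510F01, a log2 fold change of -0.37 that was -0.14 without DMSO replicate 4.

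M510F01 was also set against boscalid directly, both at 0.03 µg/L and 96 hpf. The fit held all 12 libraries, so the DMSO libraries also enter the spread behind its p-values and intervals. Of 36 members tested, 0 passed in limma, where 0.013% of all genes tested did, and 0 passed in edgeR and in DESeq2. Log2 differences, M510F01 minus boscalid, were negative for 15 and positive for 21 members, with a median of 0.04 against 0.00 over all genes. Each tool gave 2 members an unadjusted p under 0.05, where 4.6% of all genes had one in limma. Both limma members, ftr63 and ftr85, were lower with M510F01, where 2.4% of all genes were. They were also the 2 members whose groups do not overlap, where 1.39% of all genes were lower in this way.

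For ftr63 the highest M510F01 library, at 48.5 normalized counts, lay below the lowest boscalid library, at 53.7. The log2 difference was -0.48 (SE 0.17, 95% confidence interval -0.84 to -0.12, limma adjusted p = 0.842). For ftr85 the highest M510F01 library had 63.4 and the lowest boscalid library 70.3, a log2 difference of -0.45 (SE 0.17, 95% confidence interval -0.83 to -0.08). The largest positive difference was 0.57 for ftr14l, whose M510F01 values of 5.1, 12.2, 21.1 and 10.1 stood above every boscalid library in 3 of 4 cases. Without M510F01 replicate 3, which held the 21.1, it was 0.27. ftr13 was at 0.47, ftr34 at 0.43, ftr50 at 0.37, ftr29 at 0.36, ftr86 at 0.31 and ftr87 at 0.24. Leaving out M510F01 replicate 2 brought ftr34 to 0.24 and ftr86 to 0.06, while ftr29 fell to 0.22 without boscalid replicate 1 and ftr87 to 0.13 without M510F01 replicate 1. Negative values were -0.40 for ftr02, -0.37 for ftr39p, -0.24 for ftr25 and -0.13 for ftr36. Without boscalid replicate 4, ftr39p was at -0.17 and ftr25 at -0.05, and ftr36 was at -0.03 without M510F01 replicate 4. The intervals lay within 2-fold for 29 of the 36 members and within 1.5-fold for 12.

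The limit of 10 normalized counts fell between members of like level. In the boscalid table ftr91 (10.1) and ftr99 (10.2) were just inside and ftr16 (9.31) and ftr90 (9.05) just outside. In the M510F01 table ftr16 (10.5) and ftr90 (10.6) were inside and ftr99 (8.85) and ftr98 (8.75) outside. Outside the limit 31 members with reads remained in the boscalid table and 30 in the M510F01 table. The highest single value among them was 17.8 normalized counts, for ftr35 in DMSO replicate 3.

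By their order in RefSeq, 47 finTRIM genes lay in 13 runs of at least 2 members with at most 5 other genes between neighbours. The longest run held 11 members, ftr39p, ftr38, ftr37, ftr35, ftr34, ftr33, ftr29, ftr30, ftr95, ftr32 and ftr36, and it includes ftr34, ftr29 and ftr38, among the 4 members with the smallest p for boscalid. Its summed normalized counts were 296.9, 240.0, 283.7 and 277.5 in DMSO, 186.8, 214.8, 227.3 and 278.0 with boscalid, and 207.5, 241.3, 281.6 and 173.0 with M510F01. The means were 274.5 ± 24.4, 226.7 ± 38.2 and 225.8 ± 46.4 (SD, n = 4), and with boscalid replicate 4 and M510F01 replicates 2 and 3 in the DMSO range the groups overlap. Of its 8 members tested, 6 were negative for boscalid with a median log2 fold change of -0.59, and 7 for M510F01 with a median of -0.45. Among the other members 18 of 29 were negative for boscalid (median -0.08) and 19 of 30 for M510F01 (median -0.09). It is the longest run, it was described after the members' values were seen, and no test was made of it.

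**Figure D4:**
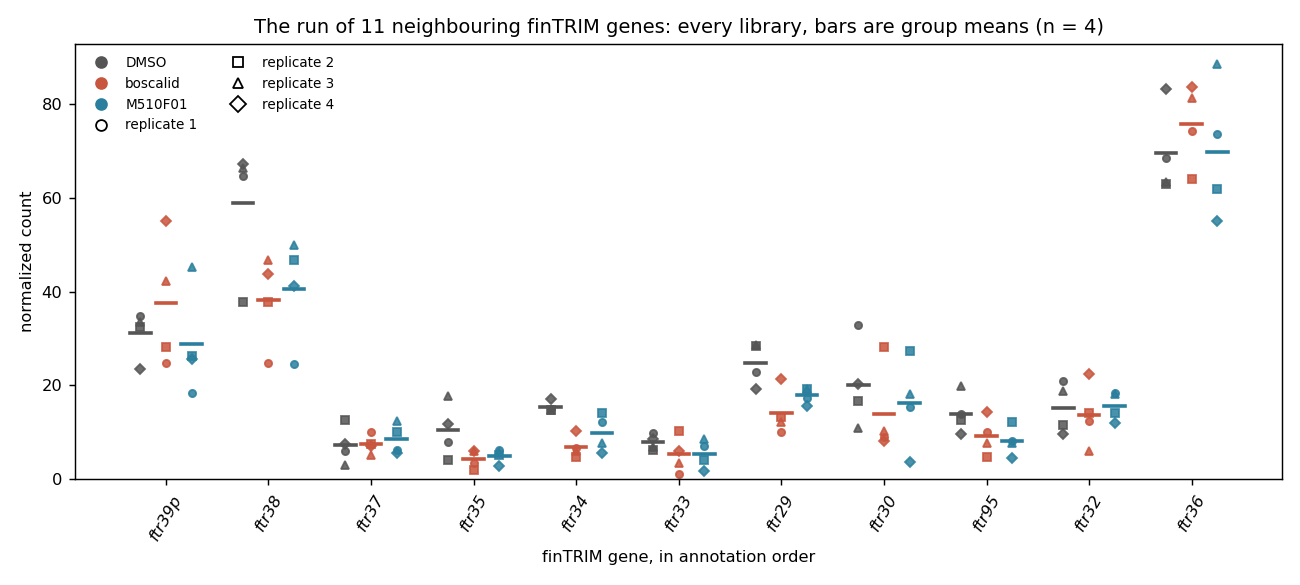
Normalized count of each of the 11 neighbouring finTRIM genes in every library, in annotation order, with colours for the groups, shapes for the replicates and bars for group means of 4 libraries. For ftr34 the boscalid libraries (4.7 to 10.2) lie below the DMSO libraries (14.7 to 17.1), and for the other 10 genes the boscalid and DMSO points overlap.

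Other runs gave other values. The run of ftr02, ftr03, ftr06 and ftr07 summed to 58.6, 58.7, 53.4 and 39.5 normalized counts in DMSO and to 68.6, 64.1, 77.8 and 75.4 with boscalid, which do not overlap. In this sum ftr03 and ftr07 had only 49 and 2 reads over all libraries, and ftr02 and ftr06 each overlap between these groups. DMSO replicate 4 of ftr02, at 21.3, stood apart from the other DMSO libraries. This run was singled out of the 13 after its values were seen. With M510F01 it summed to 57.2, 46.6, 67.3 and 53.1, within reach of both. The run of 8 around ftr24 had means of 162.9 ± 19.2, 173.6 ± 15.1 and 170.9 ± 6.07 (SD, n = 4) in DMSO, boscalid and M510F01. The pair ftr82 and ftr83 had 807.7 ± 152.1, 723.9 ± 149.0 and 719.5 ± 78.1 (SD, n = 4).

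Lists of genes around the family were described in the same way, and limma and edgeR called 0 members of each in every comparison. The tables held 47 of 56 genes listed for interferon induction and signalling and 50 of 64 interferon-induced effectors. Of 38 genes of the first list tested for boscalid, 35 were negative with a median log2 fold change of -0.18, and 6 had an unadjusted p under 0.05, where 7.68% of all genes had one. For M510F01 29 of 39 were negative with a median of -0.11, which was -0.056 without DMSO replicate 4, and 5 had such a p, where 3.61% of all genes did. stat1b, a transcription factor of the interferon response, had 152.4 ± 36.3 normalized counts in DMSO, 30.9 ± 22.6 with boscalid and 95.6 ± 47.7 with M510F01 (SD, n = 4). Its log2 fold change was -2.61 for boscalid (SE 0.53, limma adjusted p = 0.365) and -0.81 for M510F01, which was -0.40 without M510F01 replicate 4. dhx58, a sensor of viral RNA, was at -1.02 for boscalid (limma adjusted p = 0.417) and irf7, a factor that switches on type I interferon genes, at -0.82. DESeq2, unlike limma and edgeR, called stat1b (DESeq2 adjusted p = 0.00035) and dhx58 (DESeq2 adjusted p = 0.027) for boscalid. Over all genes DESeq2 called 91 of 23085 tested for boscalid. For M510F01 the smallest p-values were those of myd88, a Toll-like receptor adaptor, at -0.50, ifngr1, an interferon gamma receptor, at -0.39 (-0.25 without DMSO replicate 4), and il10rb at -0.25.

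Among interferon-induced effectors, 21 of 29 were negative for boscalid (median -0.19) and 24 of 31 for M510F01 (median -0.21, and -0.10 without M510F01 replicate 4). An unadjusted p under 0.05 was reached by 7 and 1 of them, against the 7.68% and 3.61% of all genes. tap1, a transporter of peptides for antigen presentation, was at -0.47 for boscalid and -0.35 for M510F01. This list shares stat1b and irf7 with the first. The other TRIM genes, named trim and a number, had a median of -0.01 for both compounds, with 28 of 52 and 27 of 52 negative. Of these 52, 2 and 6 had an unadjusted p under 0.05, against 7.68% and 3.61% of all genes. trim35-7 was at -0.73 for boscalid and -0.61 for M510F01, and trim35-30 at -1.04 and -1.09 (-0.70 for M510F01 without its replicate 1). The bloodthirsty-related TRIM genes (btr) had 8 of 13 negative for boscalid (median -0.04) and 10 of 15 for M510F01 (median -0.05). The 3 with the smallest p for boscalid were btr02 at -0.43, btr06 at 0.65 and btr12 at -0.40. For M510F01 they were btr31 at 0.74, btr06 at 0.54 (0.34 without DMSO replicate 1) and btr07 at 0.39. Of the btr genes tested, 3 for boscalid and 0 for M510F01 had an unadjusted p under 0.05, against the same 7.68% and 3.61%. The boscalid median of btr genes was -0.10 with boscalid replicate 3 left out and 0.011 with boscalid replicate 1 left out. For M510F01 minus boscalid the medians of these 4 lists were 0.10 for induction, 0.07 for effectors, 0.04 for trim and 0.02 for btr genes. Without boscalid replicate 4 the first was 0.051 and that of trim genes -0.007, and that of effectors was -0.034 without M510F01 replicate 2.

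In 9 lists of markers for cell types of the larva limma called 0 of 65 genes tested, with an unadjusted p under 0.05 for 12 with boscalid, where 7.68% of all genes had one, and 7 with M510F01, where 3.61% did. edgeR called 0 of them, and DESeq2 called 1, the epidermal marker anxa1c for boscalid, named after its value was seen. For boscalid DESeq2 called 91 of all 23085 genes tested. The summed neutrophil markers ran from 10317 to 13290 normalized counts in DMSO, 10935 to 15520 with boscalid and 9057 to 11656 with M510F01. Macrophage markers ran from 760.2 to 924.3, 719.0 to 921.7 and 702.2 to 842.4, and lymphoid markers from 700.1 to 898.3, 539.8 to 1095 and 738.0 to 970.0. None of the markers matched was at 0 in all libraries. Their median log2 fold changes for boscalid were -0.28, -0.06 and -0.03, and for M510F01 -0.23, -0.18 and 0.10. For boscalid 5 of 7 neutrophil markers tested were negative, although the range of the neutrophil sum was higher than in DMSO at each end. A sum follows its most abundant genes, so it and the median can differ in direction, and the reason here was not tested. The part of these cells in the finTRIM values was not tested. The lists of intestine, epidermis, liver, vessel, eye and muscle had medians of 0.23, -0.02, 0.01, -0.05, 0.38 and 0.06 for boscalid and of 0.28, -0.15, -0.06, -0.09, 0.19 and -0.12 for M510F01.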

How the data were processed

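RNA of whole larvae was sequenced from stranded libraries after removal of ribosomal RNA, per the labels' protocols. Per the submitters' processing notes, DESeq2, featureCounts, STAR, cutadapt and FastQC were used. No source used here gives the genome build, the annotation or the strand setting. The authors deposited, in 1 table per compound, a signal in normalized counts for every gene in each library, from which whole reads were recovered within a tolerance of 0.01. The authors also deposited a log2 fold change with its standard error, a test score, and a p-value with its adjusted p-value per gene. Of 14 samples labelled, 12 have columns.

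Genes averaging 10 or more normalized counts were tested with limma 3.58.1 (R 4.3.3, trend and robust) after adding 1 and taking log2, each compound within its own table, with Benjamini-Hochberg adjustment over all genes and a threshold of 0.05. A fold change on this scale understates the change of low genes. For M510F01 against boscalid, and for levels, the 12 libraries were put on one scale with median-of-ratios factors, 0.230% to 1.01% above the deposited values. The DMSO libraries stayed in the fit of M510F01 against boscalid. Its limit of 10, standard errors and p-values thus rest on all 12 libraries. Recovered reads were also tested with edgeR 4.0.16 and DESeq2 1.42.0. Named by rule were, per comparison, the 6 members with the smallest p in each direction. Also named by rule were the 10 with most reads and ftr82, ftr83, ftr84, ftr63 and ftr86. The rule further gave the 3 genes with the smallest p per other list and comparison, of which only some are named. Named beside these, after their values were seen, were the runs of neighbours and single values of ftr35 and ftr99. Other settings covered the pseudocount (0.5 and 5), the filter (none and 50), TMM, limma without the robust setting and the replicate block. They also covered a term that sets replicates 1 and 2 against 3 and 4, and a fit of all groups jointly. Each library of the groups compared was also left out in turn. The tests were tried on simulated data, and no result of that trial is given here, so the power at 4 libraries a group is not stated. The members and lists were chosen with earlier results of these data known. Python 3.11.15 with pandas 2.3.3 and matplotlib 3.10.9 served for tables and plots. Sequences were not analysed here.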

Additional observations from a re-analysis of the deposited data

Results flagged for a closer look

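In 3 of 78 groups of 4 libraries examined, over 26 named members, 1 library stood apart from the others by more of the group's range than the 95% critical value of Dixon's test allows, and chance alone marks about 1 group in 20. ftr34 had 17.1 normalized counts in DMSO replicate 4, with the other DMSO libraries at 14.7 to 14.9. That value rests on 16 reads, so the gap lies within counting error. ftr38 had 37.7 in DMSO replicate 2, with the others at 64.5 to 67.2. ftr02 had 21.3 in DMSO replicate 4, with the others at 39.5 to 42.7.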

How the results depend on the processing

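No finTRIM member was called under any of 19 alternatives for boscalid, 19 for M510F01 and 18 for their difference, where the smallest adjusted p-values were 0.112 (ftr86, limma with the replicate block), 0.402 (ftr63, limma without DMSO replicate 3) and 0.250 (ftr63, limma with the replicate block). The finTRIM median for boscalid ran from -0.21 (without DMSO replicate 1, also without boscalid replicate 4) to -0.044 (without DMSO replicate 4). For M510F01 it ran from -0.15 without replicate 3 to -0.054 without replicate 1, and was -0.064 without replicate 2 and -0.055 without replicate 4. For M510F01 minus boscalid it lay between -0.014 (boscalid replicate 1 left out) and 0.099 (boscalid replicate 2 left out), and was -0.029 for members with a mean of at least 50. It moved by over 1.5 times without any other single boscalid or M510F01 library except M510F01 replicate 1. DMSO libraries were not left out of this comparison. Unadjusted limma p-values under 0.05 for M510F01 numbered 5 without DMSO replicate 4, where 1.95% of all genes had one. They numbered 5 without M510F01 replicate 1, where 2.97% of all genes had one, and 4 without M510F01 replicate 2, where 3.33% did.

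The log2 fold change of ftr82 changed sign with single libraries: it ran from -0.19 to 0.042 for boscalid (0.023 without DMSO replicate 4), from -0.21 to 0.00063 for M510F01, and from -0.14 to 0.061 for their difference (0.024 without boscalid replicate 2, 0.053 without M510F01 replicate 1). The difference for ftr83 ran from -0.087 to 0.27, and was -0.015 without M510F01 replicate 2. For boscalid DESeq2 called 2 genes of interferon induction, stat1b and dhx58, and 1 of them, stat1b, is also on the effector list. The btr median for boscalid was -0.20 with no filter and -0.35 at a mean of at least 50. For M510F01 minus boscalid it was 0.14 under both and ran from -0.080 to 0.10 with 1 library left out, and for M510F01 from -0.16 to 0.010. The trim median for M510F01 was 0.046 at a mean of at least 50 and ran from -0.027 to 0.017 with 1 library left out. The cause was not tested. Over all genes, limma called 4 for boscalid, 0 for M510F01 and 3 for their difference. In the same order DESeq2 called 91 of 23085, 0 of 23193 and 20 of 23131.

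Same-numbered libraries correlated between -0.02 and 0.51 in their deviations, above 0.1 in 8 of 12 pairs, and in 7 of 12 comparisons of a library with another group its own number matched best. Since not every pair was above 0.1 and the labels name no shared source, the numbers were not taken to pair samples. Whether same-numbered libraries share a source was not tested. The p-values and intervals of the main fits leave the numbers out, so any spread that same-numbered libraries share remains in them. With the replicate block 0 finTRIM members were called, the medians were -0.13, -0.11 and 0.04, and calls over all genes were 90, 1 and 8. Members with an unadjusted limma p under 0.05 then numbered 7 for boscalid, where 19.996% of all genes had one. They numbered 2 for M510F01 and 2 for the difference, where 5.58% and 14.1% of all genes did. Low read numbers limit members such as ftr34, and the half-width of the 95% interval was 0.56 in the median member for boscalid.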
